A study of Mus musculus with 12 samples.

Results

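The UDP-glucuronosyltransferases (UGT), sulfotransferases (SULT) and glutathione S-transferases (GST) form a group of conjugation enzymes that were taken from the count table by gene symbol alone. Symbols of the Ugt1a, Ugt2a, Ugt2b, Ugt3a, Sult and Gst series gave 57 genes of 24452, namely 17 UGT, 19 SULT and 21 GST genes. No measured value was used in the choice. Of these, 37 passed the filter on low counts and were tested (10 UGT, 8 SULT and 19 GST genes of 14618 genes tested), and 29 of the 37 had at least 10 counts in every library. The other 20 had at most 23 counts in any library and are described near the end.

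RNA was sequenced as stranded mRNA libraries from kidney cortex of adult C57BL/6 mice, 3 libraries in each of 4 groups, to ask how glomerulonephritis (GN) and the drug captopril change the kidney. GN_captopril and GN_water were mice with GN, raised by intraperitoneal horse spleen apoferritin (10 mg, 5 injections a week) with lipopolysaccharide as adjuvant (100 micrograms, 3 injections a week) over 6 weeks, while Control_captopril and Control_water mice had saline injections. Kidneys were taken at week 9, all libraries are labelled male, and captopril, an inhibitor of angiotensin-converting enzyme, was given at a dose that the labels do not state. The labels do not say that the 3 libraries of a group come from separate mice or whether a library pools mice, so p-values measure only the spread between these libraries.

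Conjugation makes drugs, steroids, bile pigments and reactive lipid products more soluble so that they can be excreted. UGT enzymes sit in the endoplasmic reticulum and transfer glucuronic acid from UDP-glucuronate, SULT enzymes are cytosolic and transfer sulfate from the activated donor PAPS, and GST enzymes join glutathione to electrophiles. In the kidney these reactions take place mainly in the proximal tubule, whose cells also take up organic anions from blood and pump conjugates into urine. In mice many of these genes are known to be expressed at different levels in males and females.

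Total counts ran from 14173432 to 22842783 per library. Sex-linked transcripts went against the label male in 6 libraries: GN_water and Control_captopril carried Xist, transcribed from the inactive X of female cells, at 181 to 375 CPM (counts scaled to library size) and summed Y-linked transcripts of at most 0.101 CPM, whereas GN_captopril and Control_water carried 121 to 144 CPM of Y-linked transcripts and Xist of at most 0.182 CPM. Ren1, the renin gene, which is known to rise under inhibition of angiotensin-converting enzyme, was at 438 to 690 CPM in GN_captopril, 20.7 to 30.2 CPM in GN_water, 63.4 to 82.8 CPM in Control_captopril and 1083 to 1794 CPM in Control_water, so it went against the captopril label in the controls. Groups are named as labelled throughout, and whether the labels of the control groups were exchanged was not tested. If they were, the contrast of Y-linked against Xist libraries below would be the captopril contrast and the captopril average would be the interaction divided by 2, while the GN average would stay as it is. A list of 19 proximal tubule markers had none at 0 in any group and summed to 55272 to 55443 CPM in GN_captopril, 20994 to 26336 CPM in GN_water, 28439 to 32684 CPM in Control_captopril and 56891 to 62434 CPM in Control_water. Without the androgen-induced gene Kap the same list summed to 25502 to 28301 CPM in GN_captopril, 15791 to 17423 CPM in GN_water, 21009 to 22779 CPM in Control_captopril and 28554 to 30946 CPM in Control_water. Counts of adrenal cortex markers reached 351 in GN_captopril replicate 2, 1658 in replicate 3 of that group and 7011 in Control_captopril replicate 3, while the other 9 libraries had 17 to 137.

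The genes lie in clusters: 13 of the 57 within 701.8 kb of chromosome 5, 7 Gstm genes within 149.3 kb of chromosome 3 and 3 Gsta genes within 155.2 kb of chromosome 9. The Ugt1a genes share their last exons on chromosome 1 and differ in their first, so that each has its own promoter. The 250 bases before the RefSeq start (GRCm38.p6) of 7 members follow, 5′ to 3′, picked after their values were seen to show Ugt1a and Ugt2b neighbours that differed and near copies that differed alike. The first 3 are Ugt1a and Ugt2b members that were lower in the libraries with Y-linked transcripts. Capitals in them mark a match to an HNF1 half-site (GTTAAT), the only 1 of 4 motifs searched on both strands that was found there.
Ugt1a2, chr1:88200361-88200610, plus strand: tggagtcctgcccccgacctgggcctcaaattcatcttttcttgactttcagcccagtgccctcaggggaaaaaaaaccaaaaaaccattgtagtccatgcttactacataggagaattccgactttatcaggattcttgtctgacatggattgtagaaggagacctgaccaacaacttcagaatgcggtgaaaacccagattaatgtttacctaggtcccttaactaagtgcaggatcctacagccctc
Ugt1a1, chr1:88211709-88211958, plus strand: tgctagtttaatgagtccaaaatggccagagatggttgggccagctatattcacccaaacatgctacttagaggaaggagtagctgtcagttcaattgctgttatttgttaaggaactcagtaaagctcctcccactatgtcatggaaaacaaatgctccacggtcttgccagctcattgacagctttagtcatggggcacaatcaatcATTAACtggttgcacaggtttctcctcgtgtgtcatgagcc
Ugt2b34, chr5:86906938-86907187, minus strand: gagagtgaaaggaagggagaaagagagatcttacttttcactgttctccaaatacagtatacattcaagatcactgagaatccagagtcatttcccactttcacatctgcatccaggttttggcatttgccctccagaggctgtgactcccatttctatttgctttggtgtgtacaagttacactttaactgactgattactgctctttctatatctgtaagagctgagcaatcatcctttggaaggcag
The next pairs are near copies whose counts differed in the same direction. The direction of Gsta1 is uncertain, since it can share reads with Gsta2. Capitals mark the aligned bases that differ between the partners.
Ugt2b37, chr5:87254789-87255038, minus strand: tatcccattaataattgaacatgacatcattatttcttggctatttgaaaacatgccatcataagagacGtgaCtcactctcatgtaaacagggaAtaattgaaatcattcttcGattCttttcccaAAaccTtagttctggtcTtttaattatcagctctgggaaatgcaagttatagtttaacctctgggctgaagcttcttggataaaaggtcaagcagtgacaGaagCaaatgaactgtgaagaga
Ugt2b38, chr5:87424204-87424453, minus strand: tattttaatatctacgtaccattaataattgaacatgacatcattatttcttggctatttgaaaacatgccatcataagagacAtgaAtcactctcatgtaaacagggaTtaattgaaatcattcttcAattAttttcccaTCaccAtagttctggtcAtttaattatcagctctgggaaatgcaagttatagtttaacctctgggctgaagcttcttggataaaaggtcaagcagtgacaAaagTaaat
Gsta1, chr9:78230419-78230668, plus strand: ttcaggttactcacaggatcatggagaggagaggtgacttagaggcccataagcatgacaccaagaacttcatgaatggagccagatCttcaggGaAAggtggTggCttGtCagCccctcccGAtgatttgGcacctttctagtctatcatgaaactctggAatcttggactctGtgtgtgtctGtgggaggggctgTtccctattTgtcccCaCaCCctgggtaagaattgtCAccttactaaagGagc
Gsta2, chr9:78347146-78347395, minus strand: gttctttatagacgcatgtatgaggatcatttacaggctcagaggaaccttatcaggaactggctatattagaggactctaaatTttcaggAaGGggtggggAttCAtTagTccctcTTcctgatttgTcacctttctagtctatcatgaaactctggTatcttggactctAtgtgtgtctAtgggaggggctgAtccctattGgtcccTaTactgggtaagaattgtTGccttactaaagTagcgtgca
Upstream of Ugt2b37 and Ugt2b38, 221 of 232 aligned positions were identical (95.3%), and upstream of Gsta1 and Gsta2 141 of 168 were (83.9%). Every other pair among these 7 aligned over 29 positions or fewer. The window printed for Gsta2 partly overlaps the gene's listed span, which ends at chr9:78347192. The HNF1 half-site of Ugt1a1 lay 41 bases before the start on the minus strand. A STAT core (TTCNNNGAA) lay 162 bases before the start of Gsta1. An Ah receptor core (GCGTG) lay 7 bases before the start used for the Gsta2 window, in the part that overlaps the gene's listed span. The Nrf2 antioxidant response element core (TGACNNNGC) was not in these 7 windows. Of 32851 promoters of this length, 6.43% held the HNF1 half-site, 7.02% the STAT core, 28.2% the Ah receptor core and 10.2% the Nrf2 core; of 61 promoters of 50 members in the table, 19.7%, 4.92%, 14.8% and 4.92% held them in that order. The motifs can overlap other motifs, and a match is a description of letters only.

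The widest differences among the conjugation enzymes separated the libraries with Y-linked transcripts (GN_captopril and Control_water) from those with Xist (GN_water and Control_captopril). Ugt1a2 was 690-fold lower, Ugt1a1 12.8-fold lower and Gsta4 7.16-fold lower in the libraries with Y-linked transcripts, whereas Ugt2b37 was 36.6-fold and Ugt2b38 7.87-fold higher. The fitted value is the mean of GN_captopril and Control_water minus the mean of GN_water and Control_captopril on the log2 scale, which is also the disease by treatment interaction divided by 2, so a difference between Y-linked and Xist libraries and that interaction cannot be told apart here. By edgeR's quasi-likelihood test with Benjamini-Hochberg adjustment over all tested genes at a threshold of 0.05, which gives every adjusted p below, 28 of the 37 tested members passed, 11 higher and 17 lower (75.7%, against 50.7% of all genes tested). At least 2-fold differences were called for 15 of them (40.5%, against 4.96% of all genes). Of all genes tested, 23.6% were higher and 27.1% lower. The median absolute log2 difference was 0.66 over the 37 members and 0.21 over all genes tested.

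**Figure D1:**
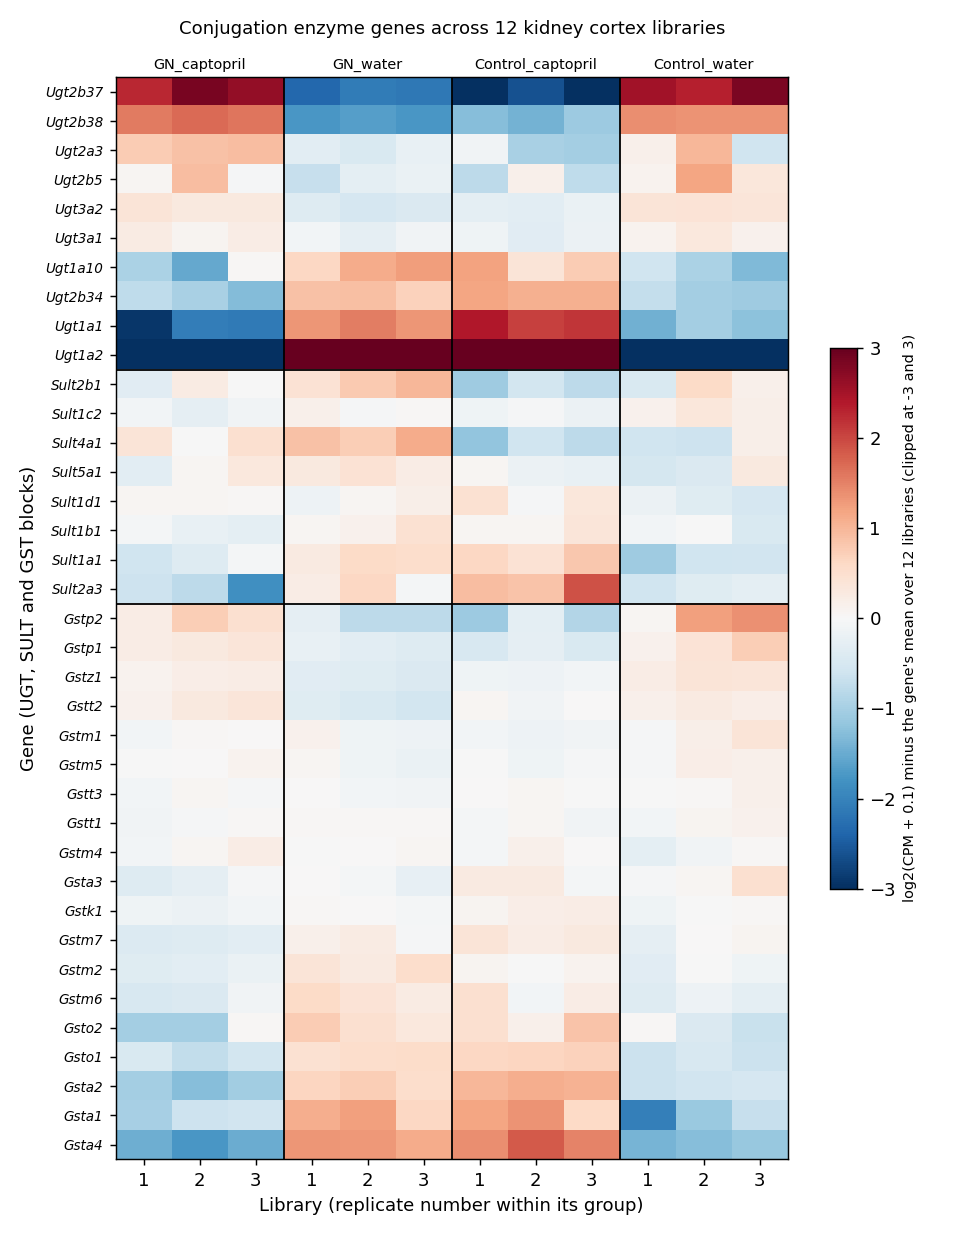
Heat map of the 37 tested members (rows, in UGT, SULT and GST blocks) in the 12 libraries (columns, by group); colour is log2(CPM + 0.1) minus the gene's mean over the 12 libraries, clipped at -3 and 3. Ugt1a2, Ugt1a1, Ugt2b34, Gsta4 and Gsta2 are low in all 6 libraries of GN_captopril and Control_water, and Ugt2b37 and Ugt2b38 are high in the same 6.

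In the Ugt1a locus, Ugt1a2 (chr1:88200611-88220002, plus strand, RefSeq coordinates) was at 1.06, 0.439 and 2.51 CPM in GN_captopril and 2.19, 2.31 and 2.84 CPM in Control_water, against 1012, 967 and 859 CPM in GN_water and 1530.6, 1463 and 1637 CPM in Control_captopril. It was thus abundant in 6 libraries and below 3 CPM in the other 6, with no overlap (log2 difference -9.43 ± 0.16 (SE), adjusted p = 9.13e-14). Ugt1a1, the main bilirubin glucuronidating enzyme of liver, was at 0.531, 1.04 and 1.004 CPM in GN_captopril and 1.68, 2.24 and 1.93 CPM in Control_water, against 11.9, 13.8 and 11.9 CPM in GN_water and 25.3, 19.6 and 21.2 CPM in Control_captopril. Its groups with Xist lay above those without in every library (log2 difference -3.68 ± 0.13 (SE), adjusted p = 9.19e-11). Ugt1a10 was at 6.57, 4.39 and 13.1 CPM in GN_captopril and 8.52, 6.67 and 5.09 CPM in Control_water, against 19.8, 27.9 and 31 CPM in GN_water and 29.6, 16.8 and 22 CPM in Control_captopril, varying more between libraries but without overlap (log2 difference -1.74 ± 0.23 (SE), adjusted p = 3.23e-05). These genes can carry each other's reads: of the 50-base windows in their transcripts, 58.2% to 64% occurred in another gene. Ugt1a1 counts were 1.18% to 1.65% of Ugt1a2 counts in the libraries with Xist and 40% to 238% of them in the other 6, where Ugt1a2 itself had at most 47.2 counts. Ugt1a10 counts were 1.15% to 3.6% of Ugt1a2 counts in the libraries with Xist and at least 180% of them in the other 6. The levels of Ugt1a1 and Ugt1a10 in the libraries with Xist are therefore uncertain. So are their changes between these libraries and their differences from the other 6.

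Of 3 relatives in the locus outside the naming rule, 2 differed the other way. Ugt1a7c averaged 767 CPM in GN_captopril and 874 CPM in Control_water, against 361 CPM in GN_water and 450 CPM in Control_captopril (log2 difference 1.02 ± 0.05 (SE), adjusted p = 2.5e-09), and Ugt1a6b was also higher (0.92 ± 0.11, adjusted p = 1.85e-05), while Ugt1a6a was lower (-0.52 ± 0.08, adjusted p = 0.000115). Of their 50-base windows, 54.2% for Ugt1a7c, 79.8% for Ugt1a6b and 96% for Ugt1a6a occurred in another gene. The levels and directions of Ugt1a6a and Ugt1a6b are therefore uncertain. Summed over the 8 symbols of the locus, which does not depend on how reads were divided among them, the level was 832 to 856 CPM in GN_captopril and 897 to 1031 CPM in Control_water, against 1287 to 1454 CPM in GN_water and 2011 to 2143 CPM in Control_captopril. The locus sum therefore did not overlap between Y-linked and Xist libraries, but differed far less than Ugt1a2 alone.

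On chromosome 5 neighbouring genes differed in opposite directions. Ugt2b37 was at 81.8, 123 and 106 CPM in GN_captopril and 97.3, 84.9 and 119 CPM in Control_water, against 3.21, 3.86 and 3.75 CPM in GN_water and 1.84, 2.67 and 1.92 CPM in Control_captopril. Ugt2b38 was at 1085, 1199.7 and 1128 CPM in GN_captopril and 969, 939 and 941 CPM in Control_water, against 111, 118 and 109 CPM in GN_water and 152, 138 and 173 CPM in Control_captopril. Both were high in all 6 libraries with Y-linked transcripts, without overlap (log2 difference 5.19 ± 0.14 (SE), adjusted p = 5.96e-12 for Ugt2b37, and 2.98 ± 0.05 (SE), adjusted p = 1.7e-13 for Ugt2b38). Their upstream windows are the near-identical pair printed above. Ugt2b34, at the far end of the cluster (chr5:86889770-86906937, minus strand), was at 35.3, 30.1 and 24.1 CPM in GN_captopril and 36.3, 29.1 and 28.6 CPM in Control_water, against 109, 112 and 96.9 CPM in GN_water and 136, 125 and 125 CPM in Control_captopril. It was the only tested UGT gene of this cluster that was lower in the libraries with Y-linked transcripts (log2 difference -1.93 ± 0.08 (SE), adjusted p = 9.18e-10).

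The other tested genes of the cluster were low. Ugt2b5 was at 1.86, 3.45 and 1.72 CPM in GN_captopril and 1.91, 4.12 and 2.26 CPM in Control_water, against 1.05, 1.44 and 1.53 CPM in GN_water and 0.987, 1.98 and 1.01 CPM in Control_captopril (0.93 ± 0.26, adjusted p = 0.01). Ugt2a3 was at 1.46, 1.59 and 1.65 CPM in GN_captopril and 0.931, 1.76 and 0.516 CPM in Control_water, against 0.641, 0.575 and 0.692 CPM in GN_water and 0.762, 0.368 and 0.354 CPM in Control_captopril (1.19 ± 0.28, adjusted p = 0.00325). Both were higher in the same direction as Ugt2b38, but their libraries overlapped. Ugt2b5, Ugt2b37 and Ugt2b38 share 41.7%, 18.3% and 37.4% of their 50-base windows with other genes, and their summed level was 1168 to 1326 CPM in GN_captopril and 1028 to 1068 CPM in Control_water, against 115 to 123 CPM in GN_water and 143 to 176 CPM in Control_captopril. Sult1b1 and Sult1d1, which lie beside the UGT genes, were slightly lower in the libraries with Y-linked transcripts (-0.38 ± 0.12, adjusted p = 0.0149, and -0.30 ± 0.08, adjusted p = 0.00968). For Sult1d1 the difference lay in the controls, at 638 CPM in Control_water and 970 CPM in Control_captopril. It averaged 835 CPM in GN_captopril and 828 CPM in GN_water, and its Y-linked and Xist libraries overlapped. The call of Sult1b1 was lost without GN_water replicate 3 (adjusted p = 0.0527). Within this cluster of 13 genes, 4 were thus called higher, 3 were called lower and 6 were too low to test. Of all genes tested, 50.7% were called in this contrast, 23.6% higher and 27.1% lower.

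**Figure D2:**
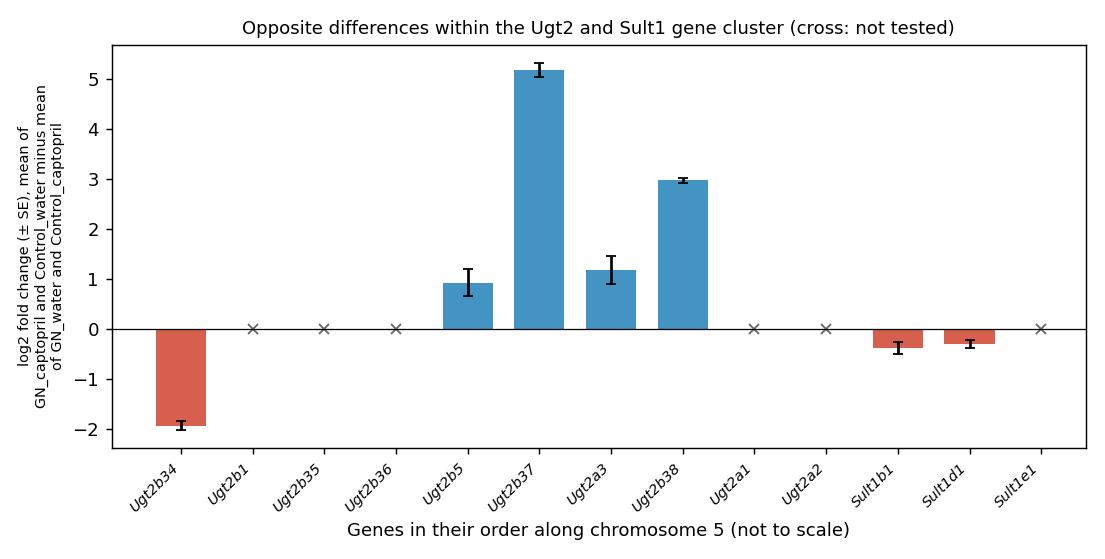
Bars give the log2 difference (± SE) between the mean of GN_captopril and Control_water and the mean of GN_water and Control_captopril for each member on chromosome 5, in gene order and not to scale; crosses mark members that were not tested. Ugt2b37 and Ugt2b38 stand at 5.19 and 2.98 while Ugt2b34, in the same cluster, stands at -1.93.

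The Ugt3a genes, on chromosome 15, were higher by smaller margins. Ugt3a2, whose human counterpart uses UDP-glucose and UDP-xylose, was at 1929, 1792 and 1792 CPM in GN_captopril and 1915, 1944 and 1888 CPM in Control_water, against 1124, 1043 and 1095 CPM in GN_water and 1202, 1181 and 1282 CPM in Control_captopril. The Y-linked and Xist libraries did not overlap (log2 difference 0.70 ± 0.04 (SE), adjusted p = 5.61e-09). Ugt3a1, whose human counterpart uses UDP-N-acetylglucosamine, averaged 590 ± 34.6 CPM in GN_captopril and 591 ± 44.5 CPM in Control_water, against 467 ± 32.7 CPM in GN_water and 449 ± 34.2 CPM in Control_captopril (SD, n = 3 each; log2 difference 0.37 ± 0.05 (SE), adjusted p = 8.74e-05). All 10 tested UGT genes passed the test in this contrast, 6 higher and 4 lower (against 50.7% of all genes tested, 23.6% higher and 27.1% lower). Ugt8a, the ceramide galactosyltransferase, which the naming rule leaves out and which was picked after its values were seen, averaged 98.9 CPM in GN_captopril and 125 CPM in Control_water, against 7.86 CPM in GN_water and 5.43 CPM in Control_captopril.

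Markers of hormone response and of several cell types moved with this contrast, in which 23.6% of all genes tested were higher and 27.1% lower. The share of macrophage and leukocyte markers called lower was near that of all genes. Of 9 tested androgen-induced kidney genes 9 were higher in the Y-linked libraries, of 7 female-biased kidney genes 5 were lower and 1 higher, and of 19 proximal tubule markers 12 were higher and 6 lower. Lower in the Y-linked libraries were 10 of 11 distal nephron and collecting duct markers, 6 of 6 podocyte markers, 4 of 6 fibroblast and smooth muscle markers and 4 of 12 macrophage and leukocyte markers, with none higher in these lists. Of 5 endothelial markers 4 were lower and 1 higher, and of 11 liver markers 6 were higher and 2 lower. Their part in the differences of the conjugation enzymes was not tested.

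Among the sulfotransferases 4 of 8 tested genes passed, all lower in the libraries with Y-linked transcripts (50%, close to the 50.7% of all genes tested). Sult1a1, which sulfates phenols, was at 10.0, 11.6 and 14.6 CPM in GN_captopril and 7.17, 9.95 and 10.1 CPM in Control_water, against 18.2, 22.7 and 21.9 CPM in GN_water and 23.3, 20.5 and 26.7 CPM in Control_captopril. Its 6 values in the libraries with Xist all lay above the other 6 (log2 difference -1.09 ± 0.11 (SE), adjusted p = 3.27e-06). Sult2a3, of the hydroxysteroid sulfotransferases, had at most 3 counts in the libraries with Y-linked transcripts and 5 to 25 counts in those with Xist (log2 difference -2.07 ± 0.43 (SE), adjusted p = 0.0014). It passed the filter only through Control_captopril, where it was highest, so its call is no support for a difference. Its highest value stood in Control_captopril replicate 3, the library with most adrenal cortex counts, and their part in it was not tested.

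Among the glutathione S-transferases 14 of 19 tested genes passed, 5 higher and 9 lower (73.7%, against 50.7% of all genes tested, 23.6% higher and 27.1% lower). Gsta4, which conjugates hydroxynonenal, a product of lipid peroxidation, was at 16.6, 13.7 and 16.4 CPM in GN_captopril and 17.5, 18.7 and 20.8 CPM in Control_water, against 115, 113 and 98.8 CPM in GN_water and 121, 164 and 129 CPM in Control_captopril (log2 difference -2.84 ± 0.09 (SE), adjusted p = 2.59e-11). Gsta2, the alpha class gene with the highest level per kilobase, was at 181, 151 and 177 CPM in GN_captopril and 235, 246 and 260 CPM in Control_water, against 575, 608 and 532 CPM in GN_water and 737, 778 and 759 CPM in Control_captopril (log2 difference -1.69 ± 0.05 (SE), adjusted p = 3.25e-11). For both genes every library with Xist lay above every library with Y-linked transcripts. Gsta1, its near copy, was at 0.398, 0.548 and 0.574 CPM in GN_captopril and 0.14, 0.364 and 0.516 CPM in Control_water, against 2.01, 2.26 and 1.43 CPM in GN_water and 2.15, 2.44 and 1.42 CPM in Control_captopril (-2.26 ± 0.26, adjusted p = 1.07e-05). Of the 50-base windows of Gsta1, 89.7% occur in another gene, and its counts were 0.0595% to 0.371% of those of Gsta2. The level of Gsta1 and the size and direction of its difference are therefore uncertain. Gsta3, which in mice detoxifies the aflatoxin epoxide, did not pass in this contrast (-0.06 ± 0.09, adjusted p = 0.613).

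The omega class genes Gsto1 and Gsto2, which reduce dehydroascorbate and mixed disulfides, were both lower. Gsto1 was at 42.3, 34.5 and 39.6 CPM in GN_captopril and 36.9, 41.3 and 36.8 CPM in Control_water, against 79.0, 83.7 and 84.2 CPM in GN_water and 89.3, 89.6 and 93.6 CPM in Control_captopril (log2 difference -1.17 ± 0.05 (SE), adjusted p = 1.03e-09), with no overlap. Gsto2 was at 0.332, 0.329 and 0.789 CPM in GN_captopril and 0.791, 0.546 and 0.451 CPM in Control_water, against 1.37, 1.11 and 0.988 CPM in GN_water and 1.12, 0.875 and 1.47 CPM in Control_captopril (-1.10 ± 0.25, adjusted p = 0.00283). The pi class genes were higher: Gstp1 averaged 266 ± 13.8 CPM in GN_captopril and 296 ± 61.8 CPM in Control_water, against 176 ± 10.1 CPM in GN_water and 164 ± 13.3 CPM in Control_captopril (SD, n = 3 each; 0.72 ± 0.08, adjusted p = 9.5e-06). Gstp2 was at 5.44, 7.84 and 6.6 CPM in GN_captopril and 4.84, 11 and 12.3 CPM in Control_water, against 3.85, 2.67 and 2.67 CPM in GN_water and 2.15, 3.82 and 2.48 CPM in Control_captopril (1.42 ± 0.23, adjusted p = 0.000175), but shares 50.4% of its windows with other genes, mainly Gstp1. Gstz1, which isomerizes maleylacetoacetate in the breakdown of tyrosine, was higher (0.50 ± 0.04, adjusted p = 2.19e-07), as was the theta class gene Gstt2 (0.47 ± 0.05, adjusted p = 5.68e-06). The mu class genes Gstm2, Gstm6 and Gstm7 were lower by 0.46, 0.66 and 0.43 on the log2 scale and Gstm5 was higher by 0.14, with adjusted p between 4.01e-05 and 0.0452, and the call of Gstm5 was lost when any of 9 single libraries was left out. The mitochondrial and peroxisomal gene Gstk1 was lower (-0.16 ± 0.04, adjusted p = 0.00515).

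**Figure D3:**
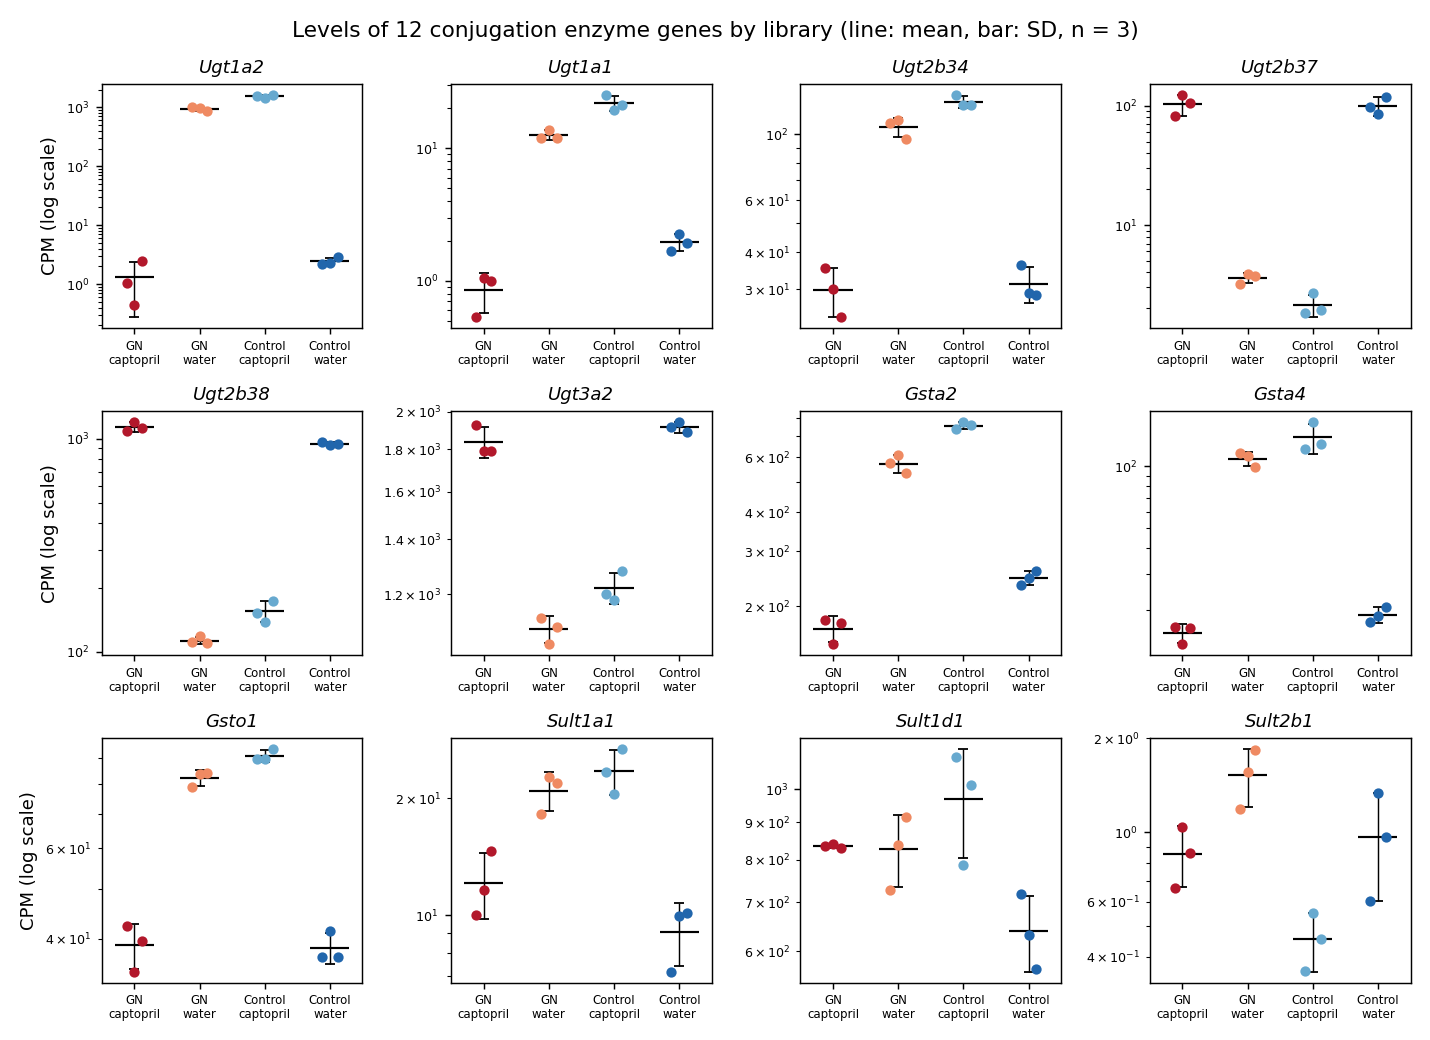
Points give CPM on a log axis in each library of the 4 groups for 12 members, with the group mean (line) and SD (bar, n = 3). For Ugt1a2, Ugt1a1, Ugt2b34, Gsta2, Gsta4, Gsto1 and Sult1a1 both groups with Xist lie above both groups with Y-linked transcripts, and for Ugt2b37, Ugt2b38 and Ugt3a2 below them.

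GN itself was read from contrasts balanced for the sex-linked transcripts. Of these, only the GN average is also balanced for the captopril label. As labelled, GN_captopril against Control_water and GN_water against Control_captopril change disease and captopril label together. GN and captopril cannot be told apart in either. In the GN average (the mean of GN_captopril and GN_water minus the mean of Control_captopril and Control_water) alpha class GST genes and the Ugt1a genes Ugt1a1 and Ugt1a2 fell, while the low-level sulfotransferase Sult2b1 rose. Sult2b1 rose in GN_water against Control_captopril but not in GN_captopril against Control_water. Of the 37 tested members 12 passed in the GN average, 2 higher and 10 lower (32.4%, against 30.9% of all genes tested; 16.3% of all genes rose and 14.6% fell). The share called was thus close to that of all genes. The median log2 change was -0.06 over the members and -0.01 over all genes tested. Nearly all changes were small, and 1 member was called at 2-fold or more (5.56% of all genes were). That member, Sult4a1, passed the filter on low counts only through GN_water, the group where it was high, so its call here and in GN_water against Control_captopril is no support for a change. In bulk RNA fewer cells of a type and less RNA per cell cannot be told apart.

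Ugt1a1 averaged 0.859 CPM in GN_captopril, against 1.95 CPM in Control_water (log2 fold change -1.15 ± 0.25 (SE), adjusted p = 0.0106), and 12.5 CPM in GN_water, against 22.02 CPM in Control_captopril (-0.81 ± 0.13, adjusted p = 0.000488). It fell in both comparisons that match the sex-linked transcripts, without overlap in either, and in the GN average (-0.98 ± 0.14, adjusted p = 0.000176). Its fall in GN_water is uncertain, since its counts were 1.18% to 1.65% of those of Ugt1a2 in the libraries with Xist. In the other comparison Ugt1a1 had few counts, with 8.14, 19.5 and 14.4 in GN_captopril, against 36.3, 37 and 30.1 in Control_water. Ugt1a2 fell to 946 ± 78.4 CPM in GN_water, against 1544 ± 87.9 CPM in Control_captopril (SD, n = 3 each; -0.71 ± 0.14, adjusted p = 0.00217). Between GN_captopril and Control_water, where its level was low, Ugt1a2 did not pass (-0.94 ± 0.37, adjusted p = 0.116), and without GN_captopril replicate 3 it did (-1.73, adjusted p = 0.005). The GN average of Ugt1a2 was -0.82 ± 0.20 (adjusted p = 0.00647). Of the relatives, Ugt1a7c and Ugt1a6a also fell in the GN average (-0.25 ± 0.05, adjusted p = 0.00176, and -0.39 ± 0.08, adjusted p = 0.00236). The change of Ugt1a6a is uncertain, as 96% of its 50-base windows occurred in another gene. Ugt3a2 was lower by a small margin (-0.11 ± 0.04, adjusted p = 0.0322), and did not pass when any of 4 single libraries or the pair with most adrenal counts was left out.

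Gsta2 fell in both matched comparisons, to 170 ± 16.3 CPM in GN_captopril, against 247 ± 12.7 CPM in Control_water (-0.54 ± 0.07, adjusted p = 0.000774), and to 572 ± 38.2 CPM in GN_water, against 758 ± 20.3 CPM in Control_captopril (-0.41 ± 0.07, adjusted p = 0.000942; SD, n = 3 each). Its GN libraries lay below the matched controls without overlap. Gsta4 averaged 15.5 CPM in GN_captopril, against 19.0 CPM in Control_water, and 109 CPM in GN_water, against 138 CPM in Control_captopril, with a GN average of -0.32 ± 0.08 (adjusted p = 0.0127). Gsta3 was at 100.1, 107 and 126 CPM in GN_captopril, against 127, 136 and 179.8 CPM in Control_water, and 132, 124 and 109 CPM in GN_water, against 157, 157 and 124 CPM in Control_captopril, overlapping between GN_water and Control_captopril only (-0.34 ± 0.09, adjusted p = 0.0158). Thus 3 of the 4 alpha class genes fell in the GN average, and Gsta1 did not pass (0.29 ± 0.28, adjusted p = 0.474).

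Other GST genes that fell in the GN average moved by less. Gstz1 was at 375, 400.0 and 405 CPM in GN_captopril, against 408, 456 and 448 CPM in Control_water, and 275, 271 and 259 CPM in GN_water, against 317, 313 and 327 CPM in Control_captopril, and its GN libraries lay below the matched controls without overlap (-0.20 ± 0.04, adjusted p = 0.00167). Gstm7 was at 10.4, 10.6 and 11 CPM in GN_captopril, against 11.4, 13.8 and 14.6 CPM in Control_water, and 15.4, 16.4 and 13.4 CPM in GN_water, against 18.1, 16 and 17 CPM in Control_captopril (-0.24 ± 0.07, adjusted p = 0.0235). Gstk1 was at 66.2, 63.3 and 68.1 CPM in GN_captopril, against 66.1, 71.8 and 73.2 CPM in Control_water, and 73.6, 72.5 and 69.6 CPM in GN_water, against 75.8, 83.1 and 83.7 CPM in Control_captopril (-0.13 ± 0.04, adjusted p = 0.029). Both overlapped in 1 of the matched comparisons. Gstt2, described below, fell by 0.19 ± 0.05 on the log2 scale (adjusted p = 0.0111). The calls of Gstk1 and Gstm7 were lost when any of 5 and 3 single libraries was left out. The genes Gstm1, Gstm5, Gstt1 and Gstp1 did not pass, with log2 changes between -0.06 and -0.01. In all, 7 of 19 tested GST genes fell and none rose (36.8%, against 30.9% of all genes called in either direction and 14.6% lower). No GST gene was called at 2-fold.

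Sult2b1, the cholesterol and pregnenolone sulfotransferase, was at 1.19, 1.56 and 1.83 CPM in GN_water, against 0.359, 0.552 and 0.455 CPM in Control_captopril, a 3.32-fold rise without overlap (log2 fold change 1.73 ± 0.33 (SE), adjusted p = 0.00148). It was at 0.664, 1.04 and 0.861 CPM in GN_captopril, against 0.605, 1.33 and 0.967 CPM in Control_water, which overlapped (-0.14 ± 0.34, adjusted p = 0.832). Sult4a1, a brain-enriched family member without a settled substrate, had 15, 15 and 17 counts in GN_water, against 2, 4 and 3 counts in Control_captopril (2.28 ± 0.40, adjusted p = 0.000908), and only GN_water reached the level of the filter. It had 7, 6 and 7 counts in GN_captopril, against 4, 3 and 6 counts in Control_water (0.78 ± 0.43, adjusted p = 0.297). The GN averages were 0.80 ± 0.24 for Sult2b1 (adjusted p = 0.0218) and 1.53 ± 0.30 for Sult4a1 (adjusted p = 0.00183), both at few counts, and that of Sult2b1 did not pass without GN_captopril replicate 2, Control_captopril replicate 1 or GN_water replicate 3 (0.70 to 0.71).

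**Figure D4:**
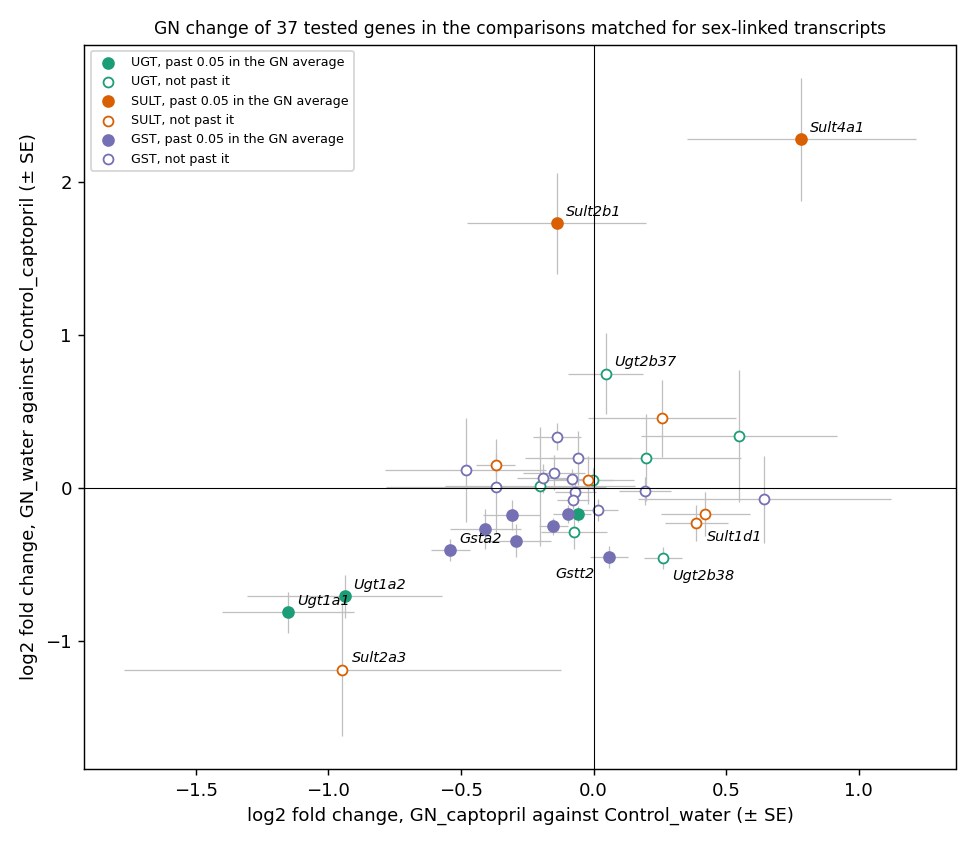
Each point is 1 of the 37 tested members, with its log2 fold change (± SE) in GN_captopril against Control_water on the x axis and in GN_water against Control_captopril on the y axis; filled points passed 0.05 in the GN average. Ugt1a1 (-1.15 and -0.81) and Gsta2 (-0.54 and -0.41) are low on both axes, while Sult2b1 (-0.14 and 1.73) and Ugt2b38 (0.26 and -0.46) differ in sign.

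GN_water against Control_captopril gave 13 called members, 4 higher and 9 lower (35.1%, against 30.1% of all genes, 16.9% higher and 13.2% lower), and GN_captopril against Control_water gave 5, 2 higher and 3 lower (13.5%, against 12.1%, 7.05% higher and 5.02% lower). At 2-fold or more, 2 members were called in the first (7.92% of all genes) and 1 in the second (3.08%). Left out in turn, single libraries moved the second count to between 3 and 8. It was 8 without Control_water replicate 1 and 3 without Control_water replicate 2, Control_water replicate 3 or GN_captopril replicate 2. Ugt2b37 rose in GN_water (0.75 ± 0.26, adjusted p = 0.0463) at 3.61 CPM, against 2.14 CPM in Control_captopril, a call that was lost when any of 7 single libraries was left out, and did not pass in GN_captopril against Control_water (0.05 ± 0.14, adjusted p = 0.873). Ugt2b34 did not pass in either, at -0.28 ± 0.11 in the first (adjusted p = 0.0695; 0.0384 by DESeq2) and -0.07 ± 0.12 in the second (adjusted p = 0.742).

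Marker genes of other cells moved with GN. The counts below are to be set against 16.3% of all genes tested that were higher in the GN average and 14.6% lower. Macrophage and leukocyte markers summed to 442 to 861 CPM in GN_captopril and 875 to 1295 CPM in GN_water, against 111 to 158 CPM in Control_captopril and 137 to 143 CPM in Control_water, with 11 of 12 higher in the GN average and none at 0 in any group. Of the 19 proximal tubule markers 9 were lower and 1 higher in the GN average, with a median of -0.17. Of 11 distal nephron and collecting duct markers 7 were lower and 1 higher (median -0.21), of 6 podocyte markers 3 were lower and 1 higher (median -0.21), and of 6 fibroblast and smooth muscle markers 4 were higher and none lower (median 0.49). Of 5 endothelial markers 1 was higher and 2 were lower. The part of these cells in the changes of the conjugation enzymes was not tested.

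The log2 fold change of some members differed between the matched comparisons. As labelled, a GN change that varies and an effect of captopril cannot be told apart in this difference. Divided by 2, the difference (GN_captopril against Control_water) minus (GN_water against Control_captopril) is also the average effect of the captopril label. It passed for 6 of 37 members, 3 higher and 3 lower (16.2%, against 6.51% of all genes tested, 3.17% higher and 3.34% lower), and for 3 when any of 5 libraries was left out (Control_water replicate 2 or 3, GN_captopril replicate 1, Control_captopril replicate 1 or 3). Ugt2b38 rose in GN_captopril to 1138 ± 58.0 CPM, against 950 ± 16.8 CPM in Control_water (SD, n = 3 each; 0.26 ± 0.07, adjusted p = 0.0326), and fell in GN_water to 113 ± 4.53 CPM, against 155 ± 17.6 CPM in Control_captopril (-0.46 ± 0.07, adjusted p = 0.000468), with a halved difference of 0.36 ± 0.05 (adjusted p = 0.00224). Its libraries did not overlap in either comparison. The rise in GN_captopril did not pass when any of 5 libraries was left out, with values of 0.22 to 0.27.

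Sult1d1, which in mice sulfates catecholamines, had the highest level per kilobase of the sulfotransferases. It was at 835, 840 and 831 CPM in GN_captopril, against 718, 631 and 567 CPM in Control_water (0.39 ± 0.12, adjusted p = 0.049), and at 728, 838 and 916 CPM in GN_water, against 1108, 788 and 1014 CPM in Control_captopril (-0.23 ± 0.12, adjusted p = 0.162). The first pair did not overlap and the second did, and the halved difference was 0.31 ± 0.08 (adjusted p = 0.0453). The first call was lost when any of 7 single libraries was left out (0.31 to 0.39), and the halved difference when any of 9 was. Sult1c2 fell to 101 ± 7.51 CPM in GN_captopril, against 130 ± 9.59 CPM in Control_water (SD, n = 3 each; -0.37 ± 0.07, adjusted p = 0.0072), with 115 ± 7.60 CPM in GN_water and 104 ± 4.92 CPM in Control_captopril (0.15 ± 0.07, adjusted p = 0.138) and a halved difference of -0.26 ± 0.05 (adjusted p = 0.0119). Gstt2 was at 147, 137 and 129 CPM in GN_water, against 196, 175 and 191 CPM in Control_captopril, a fall without overlap (-0.45 ± 0.07, adjusted p = 0.000463), and at 206, 231 and 243 CPM in GN_captopril, against 208, 227 and 217 CPM in Control_water, which overlapped (0.06 ± 0.07, adjusted p = 0.641). Gstm2 rose to 68.7 CPM in GN_water, against 54.3 CPM in Control_captopril (0.34 ± 0.09, adjusted p = 0.00968; not past it when either of 2 single libraries was left out), and had 42.3 CPM in GN_captopril and 46.6 CPM in Control_water (-0.14 ± 0.09, adjusted p = 0.35). The halved differences were 0.25 ± 0.05 for Gstt2 (adjusted p = 0.0122), -0.24 ± 0.06 for Gstm2 (adjusted p = 0.0407) and -0.93 ± 0.24 for Sult2b1 (adjusted p = 0.035). The value for Gstm2 did not pass when any of 9 single libraries was left out and that for Sult2b1 when any of 7 was.

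The 4 comparisons within a disease or treatment label each pair a Y-linked group with an Xist group, so that label and sex-linked transcripts cannot be told apart in them. At 2-fold or more they called 15 members in GN_captopril against Control_captopril (8.66% of all genes) and 15 in Control_captopril against Control_water (4.93%). They called 14 in GN_water against Control_water (13.3%) and 14 in GN_captopril against GN_water (7.05%). In all they called 26 of 37 members in GN_captopril against Control_captopril (10 higher, 16 lower; 70.3%, against 39.8% of all genes, 20.5% higher and 19.3% lower) and 23 in GN_water against Control_water (14 higher, 9 lower; 62.2%, against 51.2%, 27.4% higher and 23.9% lower). GN_captopril against GN_water called 25 (9 higher, 16 lower; 67.6%, against 45.1%, 19.6% higher and 25.5% lower) and Control_captopril against Control_water called 26 (14 higher, 12 lower; 70.3%, against 32.4%, 15.4% higher and 17% lower). Ugt1a2 differed by -10.25 ± 0.24, 8.61 ± 0.22, -9.55 ± 0.24 and 9.31 ± 0.22 on the log2 scale in these 4 comparisons in turn, with adjusted p of at most 1.22e-11.

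Per kilobase of exon (CPM per kb, mean of the 4 groups), Ugt3a2 led the 57 members at 651, ahead of Gsta2 at 502, Gstm1 at 374, Sult1d1 at 338, Ugt2b38 at 311, Ugt1a2 at 282 and Gstp1 at 275. The order depended on the group. Ugt3a2 led in GN_captopril at 789 and in Control_water at 823, with Ugt2b38 next at 602 and 502, whereas Gsta2 led in GN_water at 657 and in Control_captopril at 871. Ugt1a2 was at 428 in GN_water and 698 in Control_captopril and at 0.605 in GN_captopril and 1.10 in Control_water.

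Summed over its genes, each family varied less than members such as Ugt1a2 or Gsta4 did. UGT genes summed to 3681 to 3754 CPM in GN_captopril and 2693 to 2883 CPM in GN_water, against 3361 to 3724 CPM in Control_captopril and 3562 to 3659 CPM in Control_water, so GN_water lay below the other 3 groups. GST genes summed to 2168 to 2359 CPM in GN_captopril and 2385 to 2651 CPM in GN_water, against 2812 to 2879 CPM in Control_captopril and 2283 to 2784 CPM in Control_water. SULT genes summed to 951 to 957 CPM in GN_captopril and 879 to 1063 CPM in GN_water, against 925 to 1241 CPM in Control_captopril and 710 to 855 CPM in Control_water. The UGT sum leaves out the relatives Ugt1a6a, Ugt1a6b and Ugt1a7c, with which its Ugt1a members can share reads. Ugt1a7c alone averaged 767 CPM in GN_captopril and 874 CPM in Control_water, against 361 CPM in GN_water and 450 CPM in Control_captopril. The family sums were not tested.

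**Figure D5:**
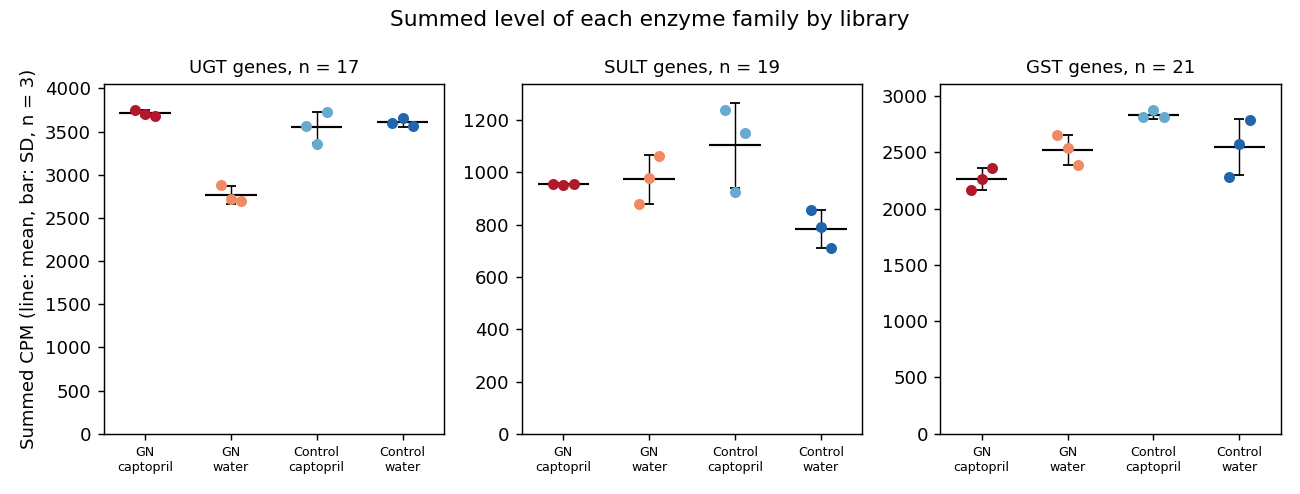
Points give the summed CPM of the 17 UGT, 19 SULT and 21 GST genes in each library, with the group mean (line) and SD (bar, n = 3); the axes start at 0. GN_water lies at 2693 to 2883 CPM for UGT genes, below the other 3 groups.

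Of the 20 members below the filter, 7 sulfotransferases had no count in any library (Sult1c1, Sult2a2, Sult2a4, Sult2a5, Sult2a6, Sult2a7 and Sult3a1), where 3 counts, the limit that a count of 0 allows, correspond to 0.123 to 0.215 CPM depending on the library. Sult1e1, the estrogen sulfotransferase, and Sult2a1 were found in 2 and 1 libraries at no more than 0.143 CPM. A set of UGT and SULT genes known from liver was highest in 1 library: Control_water replicate 2 had 1.15 CPM of Ugt2b1, 0.849 of Ugt2b36, 0.546 of Ugt2b35 and 1.40 of Sult2a8, a bile acid sulfotransferase of mouse liver, against at most 0.329, 0.329, 0.198 and 0.494 CPM in the libraries outside Control_water. Of 11 liver markers 7 were also highest in that library, among them Alb at 103 CPM, against 7.70 to 59.0 CPM in the other 11 libraries, while 2 peaked in Control_captopril replicate 1 and 1 each in GN_captopril replicate 2 and GN_water replicate 2. The sum of the 11 was highest in GN_captopril replicate 2 at 2656 CPM, against 2363 CPM in Control_water replicate 2, most of it Cyp2e1. Their part in the levels of these UGT and SULT genes was not tested.

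The pathway around the enzymes was read from lists of genes, to be set against 16.3% of all genes tested that were higher in the GN average and 14.6% that were lower; several lists lay near these shares. In the GN average, 0 of 9 conjugate export pumps were higher and 4 lower, among them Abcc4 (-0.47 ± 0.08, adjusted p = 0.000577), which moves organic anions into urine, and Abcc2 (-0.39 ± 0.08, adjusted p = 0.00305). Of 15 genes of glutathione synthesis and recycling 1 was higher and 4 lower, and of 18 genes of glutathione breakdown and mercapturate formation 3 were higher and 3 lower. Of 12 genes of UDP-glucuronate supply and use 2 were higher and 3 lower, of 11 genes of sulfate activation and desulfation 1 was higher and 2 lower, including Slc13a1, the sulfate uptake carrier of the proximal tubule (-0.29 ± 0.06, adjusted p = 0.00203). Of 12 Nrf2 target genes 1 was higher and 4 lower, and of 18 regulators of these enzymes 1 was higher and 5 lower, with Hnf4a at -0.32 ± 0.04 (adjusted p = 9.95e-05). Of 10 further GST-related genes 3 were higher, among them Hpgds, the hematopoietic prostaglandin D synthase (1.61 ± 0.14, adjusted p = 4.83e-06), and 2 lower. In the contrast of Y-linked against Xist libraries, with both genes chosen after their values were seen, Abcc3, an exporter of glucuronides, averaged 3.31 CPM in GN_captopril and 2.04 CPM in Control_water, against 103 CPM in GN_water and 106 CPM in Control_captopril (-5.34 ± 0.22, adjusted p = 3.77e-10). Ggt1, which starts the breakdown of glutathione conjugates, averaged 1665 CPM in GN_captopril and 1716 CPM in Control_water, against 855 CPM in GN_water and 863 CPM in Control_captopril (0.98 ± 0.05, adjusted p = 1.96e-09).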

How the data were processed

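Stranded mRNA libraries from mouse kidney cortex, 3 in each of 4 groups, were analysed. The authors deposited estimated counts per gene symbol, of which 13.6% were not whole and which were rounded here before testing. The authors also deposited RPKM values, scaled by gene length and depth as the unit's name says, which served as an alternative. The submitters' processing notes name Bowtie2, Partek and the build mm10; their versions and the annotation are not stated there. Libraries held 14173432 to 22842783 counts. Groups were taken from the labels.

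Genes passing edgeR's filterByExpr (minimum count 10, minimum total 15) were fitted together over the 12 libraries with TMM scaling and 1 term per group (edgeR 4.0.16, R 4.3.3). Each of 9 comparisons was tested with edgeR's quasi-likelihood test, two-sided, with Benjamini-Hochberg adjustment over 14618 genes and a threshold of 0.05; SE is the log2 fold change over the square root of F. The method was tested on simulated data. Alternatives were DESeq2 1.42.0, RLE scaling, no filter, limma 3.58.1 on log2(RPKM + 0.1) or log2(RPKM + 1), the replicate block, leaving out each library in turn, and leaving out the 2 libraries with most adrenal marker counts. No set test was used.

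Per-library values were given for members with a group mean of at least 1 CPM that passed in the GN average or in both matched comparisons, or differed at least 2-fold with a call in any comparison, and the others by range and count with some examples. From each pathway list at most 4 called genes with the smallest adjusted p were eligible for naming. Gene coordinates are from RefSeq, strands, exon lengths and transcript sequences from GENCODE M21, and promoter sequences from RefSeq (GRCm38.p6). Windows of 50 bases shared between transcripts measured possible read sharing. The members, gene lists and comparisons were chosen with earlier results of these data known.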

Additional observations from a re-analysis of the deposited data

Results flagged for a closer look

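The change with GN differed between the captopril and water labels for 20 named members, by an interaction term in edgeR's quasi-likelihood test. The value given is the GN change under the captopril label minus that under the water label, divided by 2, on the log2 scale, which is the same contrast as Y-linked against Xist libraries. Among UGT genes it was -9.43 for Ugt1a2, -3.68 for Ugt1a1, -1.74 for Ugt1a10, -1.93 for Ugt2b34, 5.19 for Ugt2b37, 2.98 for Ugt2b38, 0.93 for Ugt2b5, 1.19 for Ugt2a3 and 0.70 for Ugt3a2. Among sulfotransferases it was -1.09 for Sult1a1. Among GST genes it was -2.26 for Gsta1, -1.69 for Gsta2, -2.84 for Gsta4, -0.16 for Gstk1, -0.43 for Gstm7, -1.17 for Gsto1, -1.10 for Gsto2, 1.42 for Gstp2, 0.47 for Gstt2 and 0.50 for Gstz1. The values of Ugt1a1, Ugt1a10 and Gsta1 are uncertain, since these genes can carry reads of others. The interaction and the sex-linked transcripts cannot be told apart.

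The change between GN and control libraries also differed between the comparisons matched for sex-linked transcripts, by the test of the difference itself. Halved, this difference is also the average effect of the captopril label. As labelled, a GN change that varies and an effect of captopril cannot be told apart in it. GN_captopril against Control_water minus GN_water against Control_captopril, divided by 2, was 0.36 for Ugt2b38, 0.31 for Sult1d1, -0.26 for Sult1c2, -0.93 for Sult2b1, 0.25 for Gstt2 and -0.24 for Gstm2.

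Gstp3, a pi class symbol found in the RPKM values but not in the counts, was at 0.365 RPKM on average in GN_captopril (0.334 to 0.391) and at 0.167 to 0.226 RPKM in GN_water, against 0.0684 to 0.266 RPKM in the control libraries. It was above every control library in GN_captopril only, and was not tested.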

How the results depend on the processing

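In the Y-linked against Xist contrast no call of a named member was lost, gained or reversed in 418 combinations of member and alternative. Members were named for calls in these same data, so this was largely set by the choice. Outside the named members, Gstm5 lost its call without any of 9 single libraries and Sult1b1 without GN_water replicate 3. The number of members called was 26 to 31, against 28. In the GN average 12 members were called, 9 to 14 when single libraries were left out, 14 with the replicate block, 8 without the 2 libraries with most adrenal counts, and 6 by limma on log2(RPKM + 0.1), where Gsta3, Gsta4, Gstk1, Gstm7, Gstt2 and Ugt3a2 did not pass; the cause was not tested. GN_captopril against Control_water gave 3 to 8 calls when single libraries were left out and the captopril average 3 to 6. Under limma on log2(RPKM + 1) the captopril average reversed to 0.17 for Ugt1a1 and 0.28 for Ugt1a2, neither called in the counts. Ugt1a2 in GN_water against Control_captopril did not pass by DESeq2 (adjusted p = 0.0953), and Ugt1a1 in GN_captopril against Control_water did not pass by limma on log2(RPKM + 1) (-0.14, adjusted p = 0.177). Ugt2b34 in GN_water against Control_captopril passed by DESeq2 (adjusted p = 0.0384), without the libraries with most adrenal counts (0.0452) and without Control_water replicate 1, GN_captopril replicate 1 or GN_captopril replicate 3 (0.0279 to 0.0417). Same-numbered libraries correlated at -0.178 to 0.254 over 18 pairs and 5 of 12 libraries correlated best with their own number, so the numbers were not taken to pair samples. With the replicate block Ugt2b34 passed in the GN average (-0.18, adjusted p = 0.0335) and in GN_water against Control_captopril (-0.29, adjusted p = 0.0147), as did Ugt2b37 in the GN average (0.39, adjusted p = 0.0444). Depth limits the lowest members, such as Sult4a1, Sult2a3 and Gsta1.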
